A study of Mus musculus with 24 samples.

Results

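Neuropeptide precursors were followed through the cerebellum and hippocampus of Npc1 mutant mice: Trh, Crh, Npy, Sst, Penk, Pdyn, Cck, Vip, Tac1 and Cartpt, 10 of the 57126 genes in the deposited counts. The genes were taken by name, each matched by its Ensembl identifier to a mouse symbol, with no threshold on their values. The list was drawn up with results of these libraries known, and which of those values led to it is not recorded. Trh heads the list and is treated as chosen by its CPM in these libraries, so its levels are a description with no test, and no call for Trh is counted below. The mice were of the strain BALB/cNctr-Npc1m1N/J, in which both copies of Npc1 are defective in the mutant and the lysosomal export of cholesterol fails, as in Niemann-Pick disease type C. The study had 12 mice, and each gave a cerebellar and a hippocampal library, 24 in all. Of these, 4 were Npc1+/+ mice that received the vehicle PBS:PEG400 (wild-type vehicle), 4 were Npc1-/- mice with the same vehicle (mutant vehicle), and 4 were Npc1-/- mice with dipyridamole at 30 mg/kg in that vehicle (mutant dipyridamole). Injections were intraperitoneal, 5 days per week from postnatal day 28. The wild-type mice were 65 days old and the mutants 63 days old, and the controls were littermates. Wild-type mice with dipyridamole are not analysed here. The wild-type mice were all female, while the mutant vehicle group had 1 female and 3 males and the mutant dipyridamole group 2 of each, so sex was a covariate in the fits reported here, unless another setting is named.

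A neuropeptide is made as a longer precursor that enters the secretory pathway, is cut by prohormone convertases inside dense-core granules, is often amidated, and is released to act on G-protein-coupled receptors. Trh encodes the precursor of thyrotropin-releasing hormone, best known from the hypothalamus but also made in brainstem raphe neurons, and Crh that of corticotropin-releasing hormone. Npy (neuropeptide Y), Sst (somatostatin), Vip (vasoactive intestinal peptide) and, in part, Cck (cholecystokinin) mark classes of GABAergic interneurons in the hippocampus. Penk and Pdyn encode the opioid precursors of the enkephalins and dynorphins, Tac1 that of substance P and neurokinin A, and Cartpt the cocaine- and amphetamine-regulated transcript peptide. Dipyridamole blocks the equilibrative nucleoside transporters and phosphodiesterases, and so raises extracellular adenosine and cyclic nucleotides. Cyclic AMP acts on several of these precursor genes through the cyclic AMP response element.

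That element is the palindrome TGACGTCA, whose core is TGACG or, on the other strand, CGTCA. It was looked for on both strands in the 250 bases before each start of transcription in the RefSeq promoter table (GRCm38.p6), which held 8 of the 10 genes in 9 windows; Crh and Penk were not matched. The upstream sequences of Trh and Cck are shown because these precursors differed most by genotype in the cerebellum, and that of Sst because it holds the whole palindrome. Each is the 150 bases up to the start of transcription, 5′ to 3′ on the strand of the gene, with the palindrome or its core in capitals.
Trh, chr6:92244651-92244800, minus strand: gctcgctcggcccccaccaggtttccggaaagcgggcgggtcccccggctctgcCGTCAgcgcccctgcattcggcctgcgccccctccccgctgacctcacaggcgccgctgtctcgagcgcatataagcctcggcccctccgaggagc
Cck, chr9:121495695-121495844, minus strand: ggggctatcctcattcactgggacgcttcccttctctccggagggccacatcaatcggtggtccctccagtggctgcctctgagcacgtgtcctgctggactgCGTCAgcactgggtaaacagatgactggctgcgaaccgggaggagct
Sst, chr16:23890845-23890994, minus strand: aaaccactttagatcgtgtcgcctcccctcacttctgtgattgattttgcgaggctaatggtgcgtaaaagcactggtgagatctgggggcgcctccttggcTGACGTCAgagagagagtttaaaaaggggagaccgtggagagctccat
The palindrome was in the windows of Sst and Cartpt, 2 of 9, against 1.55% of all 32851 windows, and the core, which the palindrome contains, was in 6 of 9 (Trh, Sst, Cck, Vip, Tac1 and Cartpt), against 17.8% of all windows. It ended 91 bases before the start in Trh, 42 in Cck and 40 in Sst. The windows of Npy and Pdyn did not hold these letters. A match is a run of letters and is no measure of binding.

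Library totals ran from 1833609 to 11590081 counts, with the shallowest library the cerebellum of mutant vehicle mouse 2. Levels below are CPM, read counts scaled to libraries of equal size, with the sizes adjusted by TMM for differences in composition. Each comes from a panel with a short amplicon for each gene, so they compare libraries within a gene, not genes with each other. Npc1 itself was at 102 ± 4.71 CPM in wild-type cerebellum and 28.9 ± 7.29 in mutant vehicle cerebellum (SD, n = 4), and at 78.0 ± 15.0 and 19.8 ± 2.42 in the hippocampus, as labelled. In wild-type mice all 10 hippocampal markers were higher in the hippocampus and all 9 tested cerebellar markers were higher in the cerebellum, by the same fit as the members. Over all genes tested, 21.8% were called higher in the hippocampus and 21.3% higher in the cerebellum. The hippocampal library of mutant dipyridamole mouse 4 stood apart, and it carries the same sequencing barcode in the labels as the cerebellar library of that mouse. Its summed hippocampal markers were at 693 CPM, against 1302 to 2205 CPM in the other 11 hippocampal libraries. Its neocortical markers were at 583 CPM, against 164 to 273 CPM. The hippocampal library of mutant vehicle mouse 2 had the highest summed choroid plexus markers, at 8111 CPM, against 83.1 to 5151 CPM in the other hippocampal libraries. Hypothalamic markers summed to 13.2 CPM in that library, against 1.66 to 7.04 CPM in the others. Age and the range of sequencing barcodes went wholly with genotype, so they and genotype cannot be told apart.

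**Figure D1:**
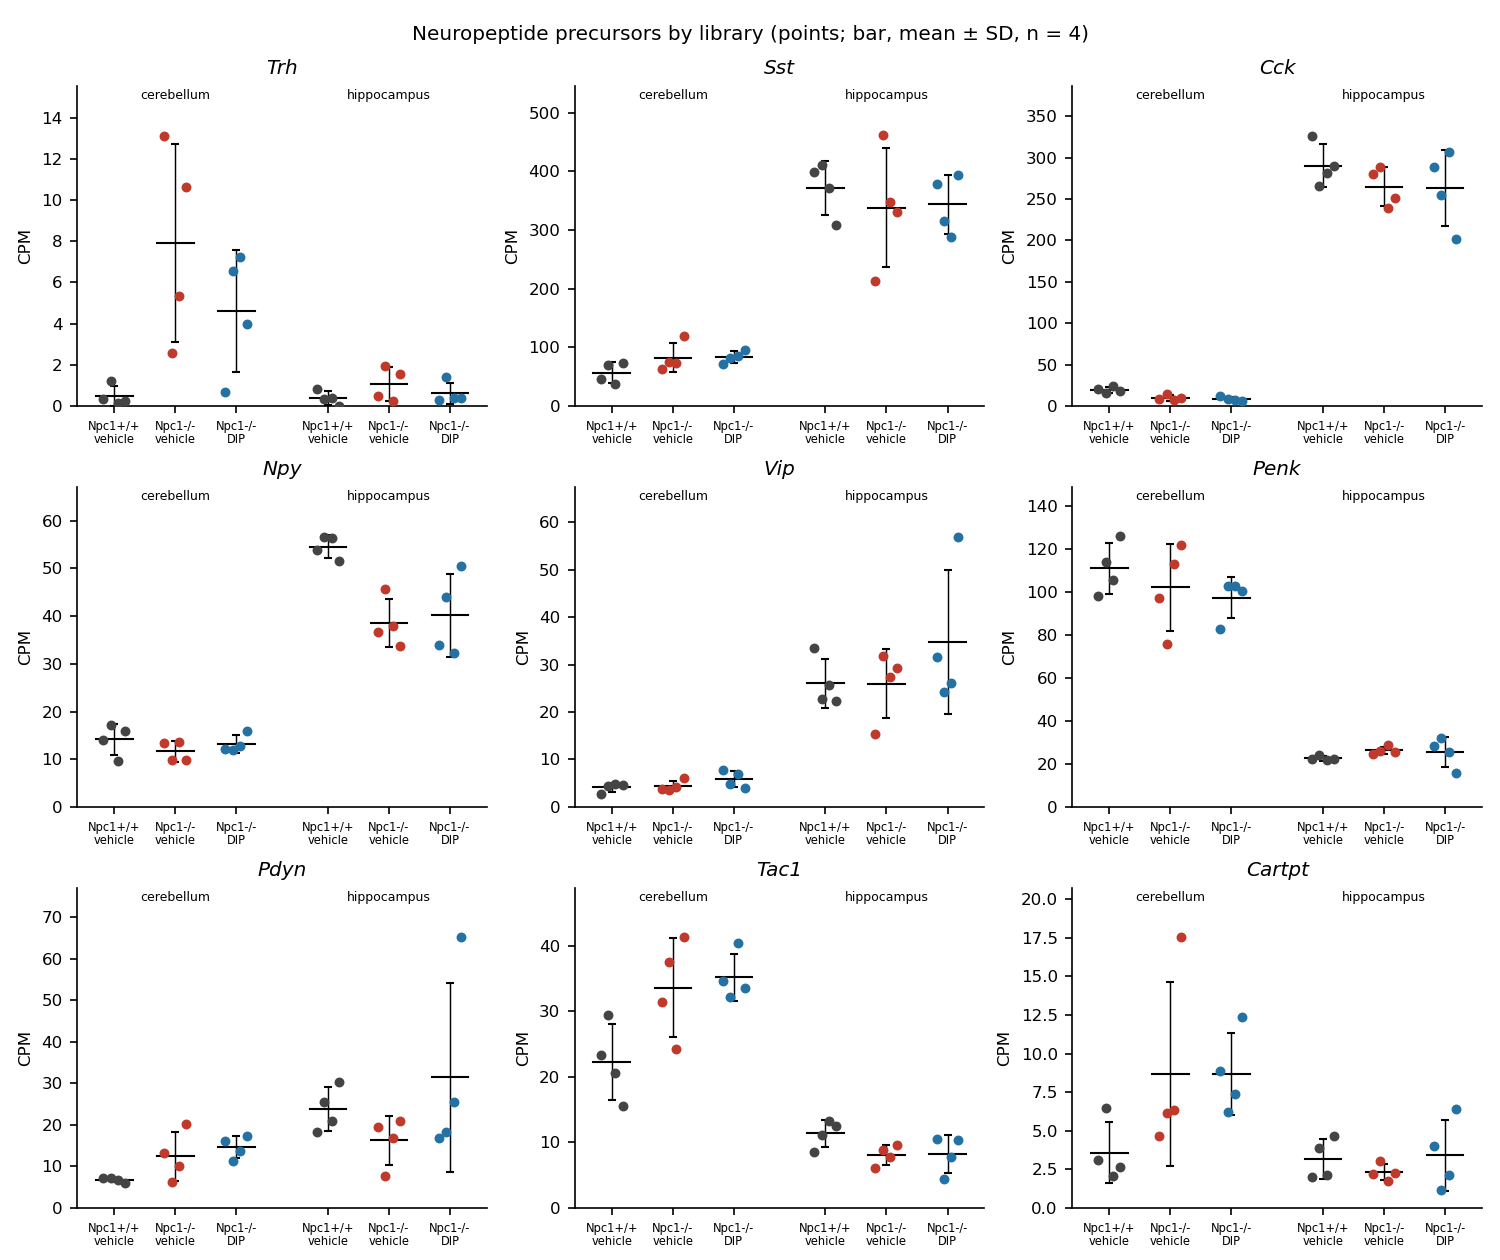
CPM (vertical axis, linear, from 0) of 9 precursors in each library (points, mice 1 to 4 from left to right) with the mean ± SD of 4 mice (bars) for the 3 groups in cerebellum (left in each panel) and hippocampus (right). Crh, at 0 in every library, is left out. Trh in mutant cerebellum stands above the wild type except for 1 mutant dipyridamole library at 0.69 CPM, and Pdyn in the hippocampus has a single library at 65.3 CPM.

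Trh was higher in mutant than in wild-type cerebellum. The wild-type vehicle libraries held 4, 12, 1 and 2 Trh counts, or 0.35, 1.20, 0.13 and 0.24 CPM. The mutant vehicle libraries held 110, 5, 43 and 74 counts, or 13.1, 2.57, 5.36 and 10.6 CPM, and did not overlap with the wild type. The mutant dipyridamole libraries held 6, 42, 66 and 37 counts, or 0.69, 6.54, 7.24 and 3.97 CPM, of which the first lay within the wild-type range and the rest above it. The mean was 0.48 ± 0.49 CPM in wild-type vehicle, 7.92 ± 4.81 in mutant vehicle and 4.61 ± 2.97 in mutant dipyridamole cerebellum (SD, n = 4). The ratio of means was 16.5 for mutant vehicle and 9.62 for mutant dipyridamole against wild type. The fitted log2 fold changes were 4.09 ± 0.84 and 3.17 ± 0.75 (SE), and they rest on 19 counts in all the wild-type libraries, so they depend on the prior count. In bulk tissue, a change in the number of cells of a type and a change in RNA per cell cannot be told apart. The gene lies on the minus strand of chromosome 6, 92219042 to 92221631 (GRCm39), and no other annotated gene overlaps it.

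In the hippocampus Trh stayed near the limit of counting in all groups, and it did not pass the filter on low counts there. The libraries held 0 to 9 counts in wild-type vehicle, 2 to 11 in mutant vehicle and 3 to 12 in mutant dipyridamole mice. The mean levels were 0.39 ± 0.33, 1.05 ± 0.82 and 0.61 ± 0.52 CPM (SD, n = 4), and the 3 groups overlapped. Ordered by mean, the 6 groups ran from mutant vehicle cerebellum through mutant dipyridamole cerebellum, mutant vehicle hippocampus, mutant dipyridamole hippocampus and wild-type cerebellum to wild-type hippocampus. Each group overlapped with its neighbours in that order. Across all 24 libraries, which did pass the filter together, the fitted genotype difference in hippocampus minus that in cerebellum was -4.34 ± 1.23 (SE, log2). It was -2.92 without the term for sex in each tissue.

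Markers of brainstem neurons also differed between wild-type and mutant cerebellum. The summed level of 10 such markers was 87.1 to 150 CPM in wild-type vehicle, 166 to 290 in mutant vehicle and 167 to 221 in mutant dipyridamole libraries, with no overlap between wild type and mutant. Slc6a5, the glycine transporter, gave the largest part of the sum. It was at 45.8 to 98.6 CPM in wild-type vehicle and 81.1 to 189 in mutant vehicle libraries, which overlapped. A sum without Slc6a5 and Th (tyrosine hydroxylase) was not made. Within the mutant groups, mutant vehicle mouse 2 and mutant dipyridamole mouse 1 had the lowest Trh and the highest sum. Each was also the highest of its group for Slc6a5 and Th, at 123 and 54.7 CPM in mutant dipyridamole mouse 1. Of 7 markers tested, 2 were called, both higher, where 5.91% of all genes tested were called higher. Th (tyrosine hydroxylase) and Chat (choline acetyltransferase) rose in mutant vehicle cerebellum, by 1.69 ± 0.35 and 1.15 ± 0.34 (log2 ± SE; edgeR adjusted p = 0.00472 and 0.0415). Slc6a4, the serotonin transporter of raphe neurons, was at 1.39, 7.59, 0 and 4.36 CPM in wild-type vehicle, 14.1, 5.14, 21.7 and 34.03 in mutant vehicle and 8.07, 9.81, 17.0 and 7.51 in mutant dipyridamole cerebellum. Its difference by genotype was 2.81 ± 0.82 (adjusted p = 0.0501), and that of Tph2, the serotonin-synthesising hydroxylase, 2.06 ± 0.88 (adjusted p = 0.174). Tph2 was at 2.08, 8.29, 0.26 and 3.03 CPM in wild-type vehicle and 13.1, 0.51, 13.0 and 18.8 in mutant vehicle cerebellum. In mutant dipyridamole cerebellum it was at 2.53, 8.72, 10.6 and 4.51 CPM. Wild-type mouse 2 was the highest of its group for Trh, Slc6a4 and Tph2, and mutant vehicle mouse 2 the lowest of its group for all of them. That mutant mouse was the highest of its group for Th, at 65.2 CPM against 22.1 to 29.9, and for Slc6a5, at 189 CPM against 81.1 to 130. Dbh and Slc6a2, markers of noradrenergic neurons, differed by 0.25 ± 0.30 and -0.10 ± 0.25, and Hoxb5 was at 0 counts in every cerebellar library. Slc6a5, the glycine transporter, which cerebellar interneurons also make, gave the most counts of the list and differed by 0.52 ± 0.31 (adjusted p = 0.329). Hypothalamic markers summed to 2.05 to 6.66 CPM in wild-type and 5.48 to 14.4 CPM in mutant vehicle cerebellum, with Nkx2-1, Pmch, Sim1 and Six6 at 0. The part of these cells in the Trh difference was not tested.

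**Figure D2:**
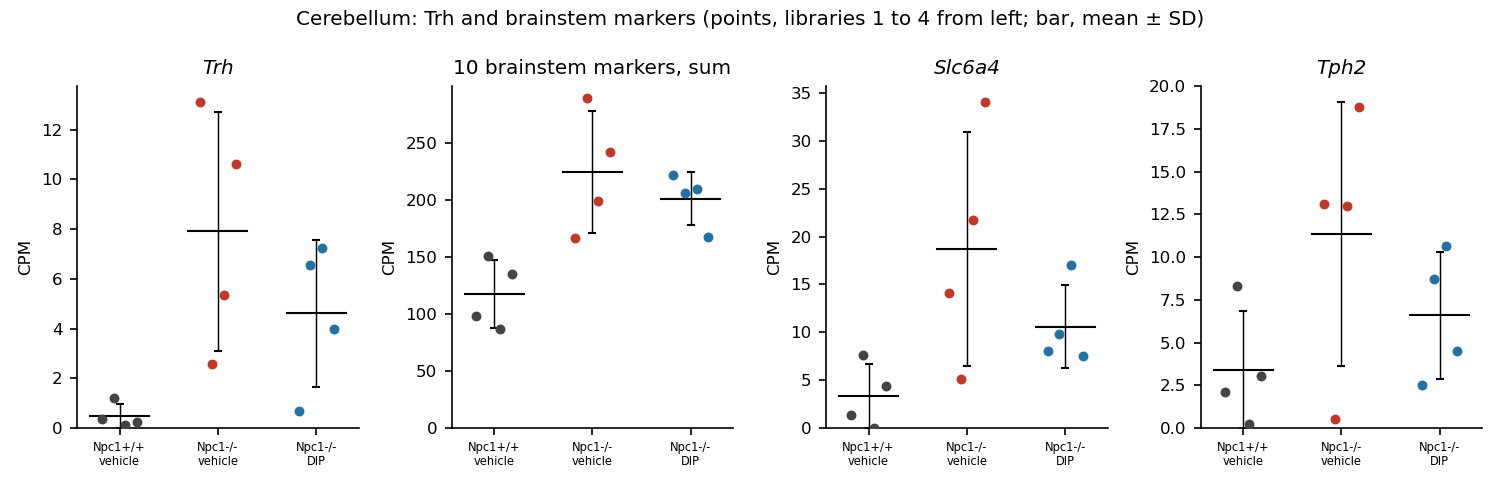
CPM in the cerebellum (linear axes from 0) of Trh, of 10 brainstem markers summed, and of Slc6a4 and Tph2, by group, with each library a point (mice 1 to 4 from left to right) and mean ± SD as bars. The summed markers run from 87.1 to 150 in wild-type vehicle and from 166 to 290 in mutant vehicle mice, and mutant vehicle mouse 2 is the lowest of its group for Trh, Slc6a4 and Tph2 but the highest for the summed markers.

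The genes whose log2 CPM followed Trh most closely over the 12 cerebellar libraries, among 10519 genes with a mean of at least 5 CPM, included Sncg, Meis2, Tnni1 and Cd83. Pearson's r was 0.939 for Sncg (γ-synuclein), 0.931 for Meis2 (a homeobox factor), 0.930 for Tnni1 (slow skeletal troponin I) and 0.924 for Cd83 (a surface protein of activated immune cells). The points share the same libraries and the same split by genotype, so these values are descriptions. Sncg averaged 69.0 CPM in wild-type vehicle, 177 in mutant vehicle and 132 in mutant dipyridamole cerebellum, and Cd83 28.2, 75.2 and 64.4.

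Cck fell in the mutant cerebellum. It was at 19.9, 15.8, 23.6 and 18.3 CPM in wild-type vehicle, 7.86, 14.9, 7.61 and 9.05 in mutant vehicle and 11.8, 8.56, 7.57 and 6.23 in mutant dipyridamole mice. All 8 mutant libraries lay below all 4 wild-type libraries, the nearest being the shallow mutant vehicle library 2, with 29 counts. The log2 fold change was -1.41 ± 0.27 (SE) in mutant vehicle (edgeR quasi-likelihood test, adjusted p = 0.00253) and -1.43 ± 0.24 in mutant dipyridamole mice (adjusted p = 0.000535), both against the same wild-type libraries. With only the vehicle groups in the fit the first was no longer called (adjusted p = 0.0778), a setting that called 421 genes in all, against 1286. Besides Trh, 8 of the precursors passed the filter in the cerebellum. Cck was the 1 called between the vehicle groups, where 9.95% of 12921 tested genes were called (5.91% higher and 4.04% lower), and Cck and Pdyn were the 2 called in mutant dipyridamole against wild type, where 14.4% were (8.13% higher and 6.29% lower). The median log2 fold change of the 8 was 0.26 and 0.52 in these comparisons, beside 0.01 and -0.01 over all genes tested. Cck lies on the minus strand of chromosome 9, 121318890 to 121324760 (GRCm39).

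Among the opioid precursors, Pdyn (chromosome 2, 129528485 to 129541764, GRCm39) was at 7.12, 7.09, 6.79 and 6.06 CPM in wild-type vehicle, 13.2, 6.16, 10.1 and 20.2 in mutant vehicle and 16.0, 11.4, 13.8 and 17.4 in mutant dipyridamole cerebellum. The dipyridamole libraries all lay above the wild type, while mutant vehicle library 2, with 12 counts, lay among the wild-type values. Pdyn rose in mutant dipyridamole against wild type by 1.09 ± 0.28 (log2 ± SE, edgeR adjusted p = 0.0132), a call lost without mutant dipyridamole mouse 4 (adjusted p = 0.126). Between the vehicle groups the difference was 0.90 ± 0.33 (adjusted p = 0.0942), and it was called without mutant vehicle mouse 2 (adjusted p = 0.0233). Only 3 of 22 alternatives called the difference between the vehicle groups. Penk was at 111 ± 12.0, 102 ± 20.2 and 97.4 ± 9.57 CPM (SD, n = 4) in the 3 groups, with a genotype difference of 0.02 ± 0.19 (SE, log2; edgeR adjusted p = 0.959). It overlaps on the opposite strand with a gene that had 0 counts.

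The other 5 tested precursors gave no call in the cerebellum. Cartpt was at 3.13, 6.49, 2.05 and 2.66 CPM in wild-type vehicle, 4.65, 6.16, 6.36 and 17.5 in mutant vehicle and 8.87, 6.23, 7.35 and 12.3 in mutant dipyridamole mice. Wild-type mouse 2 alone reached the mutant values. The genotype difference was 1.29 ± 0.53 (log2 ± SE, edgeR adjusted p = 0.142), and without that mouse it was 1.74 and called (adjusted p = 0.0495). Only 3 of 22 alternatives called it. Tac1 averaged 22.2 ± 5.78, 33.6 ± 7.49 and 35.2 ± 3.58 CPM and Sst 56.7 ± 17.7, 82.3 ± 25.2 and 83.3 ± 9.98 CPM (SD, n = 4) in wild-type vehicle, mutant vehicle and mutant dipyridamole cerebellum. Their genotype differences were 0.48 ± 0.26 and 0.59 ± 0.28 (SE; edgeR adjusted p = 0.27 and 0.212). In mutant dipyridamole against wild type, Tac1 and Cartpt had adjusted p of 0.0689 and 0.0649 by the same test, and both were called in female mice alone (0.0185 and 0.00661). Over 22 alternatives, Tac1 and Cartpt were called in 6 and 9 for that comparison, with adjusted p of up to 0.328 and 0.378. Npy differed by -0.05 ± 0.25 and Vip by 0.04 ± 0.35 between the vehicle groups.

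Other marker lists also differed between wild-type and mutant cerebellum. The 10 cerebellar markers summed to 5741 to 7169 CPM in wild-type vehicle and 3683 to 4269 CPM in mutant vehicle libraries. Of 9 tested members 3 fell, where 4.04% of all genes tested did. They were Car8 (-4.07 ± 0.26, log2 ± SE, edgeR adjusted p = 1.46e-08) and Pcp2 (-3.10 ± 0.34, 1.46e-05), both made by Purkinje cells, and Gabra6 (-0.89 ± 0.22, 0.0152), made by granule cells. Calb1 (calbindin), listed here for dentate granule cells and in the cerebellum made by Purkinje cells, fell by 3.44 ± 0.23 (adjusted p = 1.71e-08). All 6 markers of activated microglia rose, where 5.91% of all genes tested did. Their summed level was 15.1 to 21.3 CPM in wild-type and 574 to 710 CPM in mutant vehicle cerebellum. The part of these shifts in the precursor differences was not tested.

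In the hippocampus no precursor was called by genotype (0 of 8 tested, edgeR; 1 at an unadjusted p under 0.05; 0 with DESeq2 and with limma-voom), where 1.62% of 12740 genes were (1.02% higher and 0.597% lower), nor in mutant dipyridamole against wild type, where 2.68% were (1.59% higher and 1.09% lower). In the same comparison of vehicle groups all 6 myelin markers fell and all 6 markers of activated microglia rose, with summed levels of 4575 to 5793 CPM in wild-type and 1129 to 1669 CPM in mutant vehicle mice for myelin, and 12.2 to 16.3 and 77.4 to 152 CPM for microglia. The part of these shifts in the precursor levels was not tested. By genotype 1569 of 12740 genes had an unadjusted p under 0.05, and Npy had the smallest p of the precursors. It was at 53.8, 56.6, 56.4 and 51.5 CPM in wild-type vehicle, 36.7, 45.6, 37.8 and 33.8 in mutant vehicle and 33.9, 44.0, 32.2 and 50.5 in mutant dipyridamole mice. The wild-type libraries all lay above the mutant ones, the nearest pair being 51.5 and 50.5 CPM. The differences were -0.48 ± 0.21 and -0.43 ± 0.19 (log2 ± SE, edgeR adjusted p = 0.389 and 0.269). Sst averaged 372 ± 45.8, 338 ± 102 and 344 ± 50.5 CPM, Cck 290 ± 25.8, 265 ± 23.2 and 263 ± 46.3 CPM, and Penk 22.6 ± 1.04, 26.3 ± 1.77 and 25.4 ± 7.00 CPM in the 3 groups (SD, n = 4). For Penk all 4 mutant vehicle libraries lay above the wild type, while the difference fitted with sex as a covariate was 0.06 ± 0.22 (log2 ± SE, edgeR adjusted p = 0.95).

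The library from mutant dipyridamole mouse 4, which stood apart in its region markers, carried the highest hippocampal Pdyn and Vip. Pdyn was at 16.8, 18.2, 25.5 and 65.3 CPM in the mutant dipyridamole libraries, beside 18.3 to 30.3 in wild-type vehicle and 7.69 to 21.0 in mutant vehicle mice. Vip was at 31.5, 24.2, 26.2 and 57.0 CPM, beside 22.3 to 33.5 and 15.4 to 31.9. Without this library and the hippocampus of mutant vehicle mouse 2 (both left out after seeing the data), the difference of Pdyn between the mutant groups was 0.06 instead of 0.56, and that of Vip 0.18 instead of 0.30 (log2). The same library had 100 CPM of Cckbr, the brain receptor of cholecystokinin, against 8.58 to 10.6 in the rest of its group. Tac1 averaged 11.4 ± 2.07, 8.03 ± 1.53 and 8.26 ± 2.87 CPM and Cartpt 3.17 ± 1.32, 2.31 ± 0.53 and 3.42 ± 2.30 CPM (SD, n = 4), with overlapping groups.

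Dipyridamole changed no precursor past the threshold in either tissue. Of 8 tested in each, 0 were called and 0 had an unadjusted p under 0.05 with edgeR, and 0 were called with DESeq2 and with limma-voom. Over all genes 0% were called, with 300 of 12921 genes in cerebellum and 93 of 12740 in hippocampus at an unadjusted p under 0.05. For Trh in cerebellum the dipyridamole group was 0.58 times the vehicle group by means, and the fitted difference was -0.91 ± 0.58 (log2 ± SE). It was -0.27 without dipyridamole mouse 1, the library at 0.69 CPM, and 0.05 in female mice alone, of which the vehicle group had 1. For Cck the difference was -0.03 ± 0.23 in cerebellum and 0.02 ± 0.14 in hippocampus, for Sst -0.01 ± 0.23 and 0.02 ± 0.21, for Npy 0.08 ± 0.21 and 0.05 ± 0.17, and for Penk -0.13 ± 0.15 and -0.03 ± 0.18. Vip differed by 0.42 ± 0.29 and 0.30 ± 0.28, Tac1 by 0.12 ± 0.21 and 0.01 ± 0.29, and Cartpt by -0.02 ± 0.42 and 0.50 ± 0.52. A p that misses the threshold does not show that these levels were alike.

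**Figure D3:**
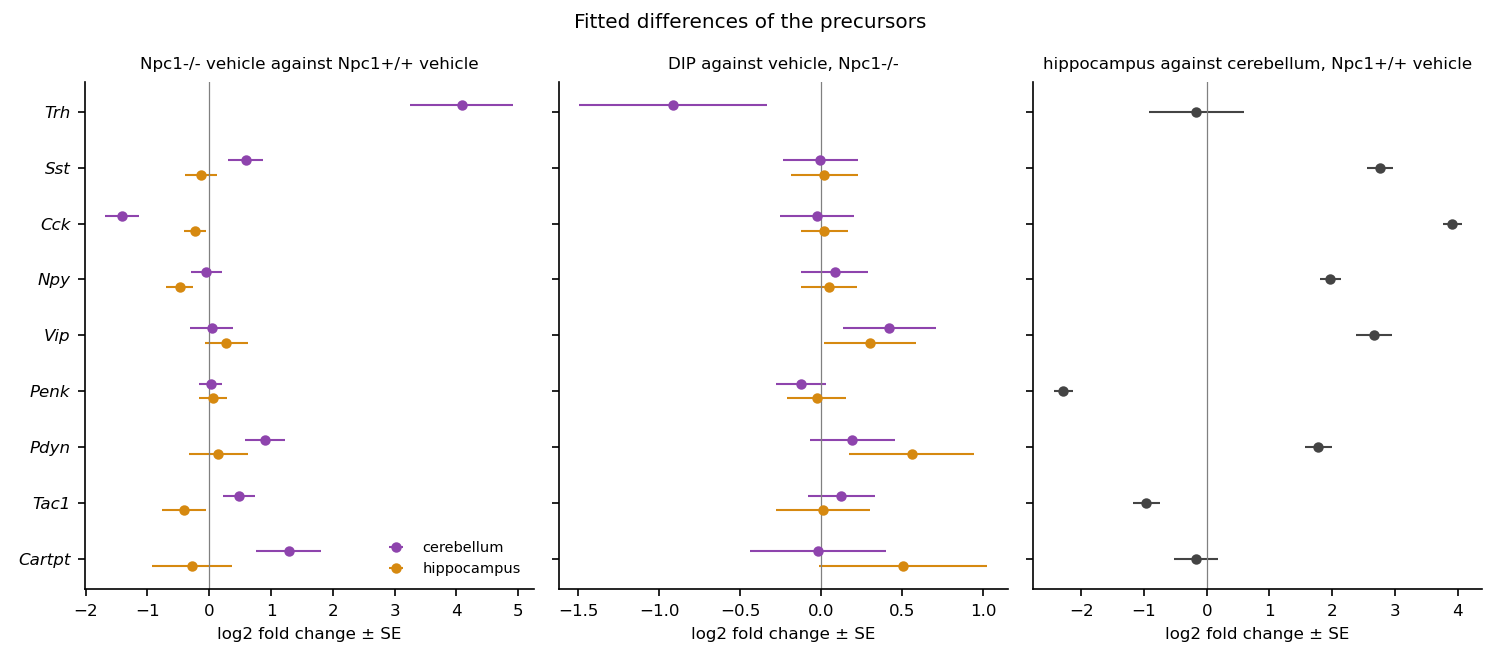
Fitted log2 fold changes ± SE (horizontal axes; the scales differ between panels) of 9 precursors for mutant vehicle against wild-type vehicle, for dipyridamole against vehicle in mutants, and for hippocampus against cerebellum in wild-type vehicle mice. Trh has no hippocampal value because it did not pass the filter there. By genotype, Trh (4.09) and Cck (-1.41) in cerebellum lie farthest from 0.

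Between the tissues of wild-type mice, 7 of the 8 tested precursors besides Trh differed, where 43.1% of 13436 genes did (21.8% higher and 21.3% lower). The 5 that were higher in hippocampus are those of interneurons together with Pdyn, which dentate granule cells also make. In log2 units the difference was 3.92 ± 0.15 for Cck, 2.76 ± 0.21 for Sst, 2.66 ± 0.28 for Vip, 1.97 ± 0.17 for Npy and 1.78 ± 0.21 for Pdyn (SE; edgeR adjusted p from 2.08e-12 to 2.19e-06). Cck was at 326, 265, 281 and 289 CPM in wild-type hippocampus against 15.8 to 23.6 CPM in wild-type cerebellum. The 2 that were lower in hippocampus were Penk (-2.29 ± 0.15, adjusted p = 1.82e-09) and Tac1 (-0.96 ± 0.22, adjusted p = 0.0016). Penk was at 98.4, 114, 106 and 126 CPM in wild-type cerebellum against 21.7 to 24.1 CPM in wild-type hippocampus. Cartpt differed by -0.17 ± 0.35 (adjusted p = 0.727), and Trh by -0.16 ± 0.75. In the tissue comparison each mouse served as its own block.

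The genotype difference itself depended on the tissue for Cck, the 1 of 8 tested precursors besides Trh called in that test, where 1.15% of genes were (0.61% higher and 0.543% lower). The difference by genotype was 1.16 ± 0.26 (log2 ± SE) higher in hippocampus than in cerebellum (edgeR interaction, adjusted p = 0.0342), since Cck in hippocampus differed by -0.24 ± 0.18. The call was lost in 11 of 21 alternatives, with adjusted p from 0.0103 to 0.279 over all of them. These were limma-voom (0.0615), the fit with no animal block (0.0642), the block by replicate number (0.0679) and 8 of 12 fits that left out a mouse, with the highest value without mutant vehicle mouse 3. For Pdyn, Sst, Tac1 and Cartpt the difference was -0.78 ± 0.38, -0.76 ± 0.35, -0.83 ± 0.40 and -1.52 ± 0.64 (edgeR adjusted p = 0.559, 0.526, 0.552 and 0.444). The dipyridamole difference was called in neither direction for any precursor between tissues (0 of 8; 0 at an unadjusted p under 0.05; 0% of 13436 genes, of which 222 had an unadjusted p under 0.05).

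Crh had 0 counts in all 24 libraries. With 3 counts as the limit, a level of up to 0.083 CPM over the wild-type cerebellar libraries and 0.12 over the mutant vehicle ones would go unseen, and up to 0.087 and 0.11 in hippocampus. Genes known from these tissues, such as C1ql3 of dentate granule cells and, in wild-type cerebellum, Slc32a1 of GABAergic neurons, were also at 0, so a 0 is not read as the absence of the transcript. These limits cover counting error only.

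The receptors of the 10 peptides were a list of 24 genes, of which 17 were tested in each tissue. In mutant vehicle cerebellum 2 rose and 1 fell, where 5.91% of all genes tested rose and 4.04% fell, and the median log2 fold change was 0.42, beside 0.01 over all genes. Trhr2, a receptor of thyrotropin-releasing hormone, was at 2.78, 3.90, 3.97 and 3.63 CPM in wild-type vehicle, 7.98, 13.9, 9.35 and 9.05 in mutant vehicle and 7.95, 9.03, 11.3 and 6.87 in mutant dipyridamole libraries. All mutant libraries were above all wild-type ones, and the difference was 1.48 ± 0.29 (log2 ± SE, edgeR adjusted p = 0.0028) in mutant vehicle and 1.33 ± 0.26 (0.00189) in mutant dipyridamole mice. The other receptor of the hormone, Trhr, was at 0.64 to 1.30 CPM in wild-type and 0.50 to 1.67 CPM in mutant vehicle cerebellum. Vipr1, a receptor of vasoactive intestinal peptide, rose from 2.79 to 4.17 CPM in wild-type to 6.68 to 9.41 CPM in mutant vehicle cerebellum, by 1.22 ± 0.33 (edgeR adjusted p = 0.026). It was not called in 6 of 22 alternatives, with adjusted p of up to 0.134.

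Crhr1, the main brain receptor of corticotropin-releasing hormone, fell. It was at 49.0, 62.4, 49.0 and 57.5 CPM in wild-type vehicle, 24.2, 24.1, 20.2 and 18.4 in mutant vehicle and 25.5, 23.2, 23.4 and 26.9 in mutant dipyridamole cerebellum, with no overlap. The difference was -1.34 ± 0.20 (log2 ± SE, edgeR adjusted p = 0.000224) in mutant vehicle and -1.14 ± 0.17 (0.000178) in mutant dipyridamole mice. In hippocampus it was at 5.69 to 9.96 CPM in wild-type and 5.49 to 7.64 CPM in mutant vehicle libraries, and the genotype difference was 1.66 ± 0.35 higher there (interaction, edgeR adjusted p = 0.0249; 0.236 at most over 21 alternatives, 5 of which lost the call). No receptor was called in the mutant hippocampus, where 1.62% of all genes were. At an unadjusted p under 0.05 there was 1 of 17, beside 1569 of 12740 over all genes. After dipyridamole no receptor was called in either tissue, where 0% of all genes were, and 0 had an unadjusted p under 0.05.

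**Figure D4:**
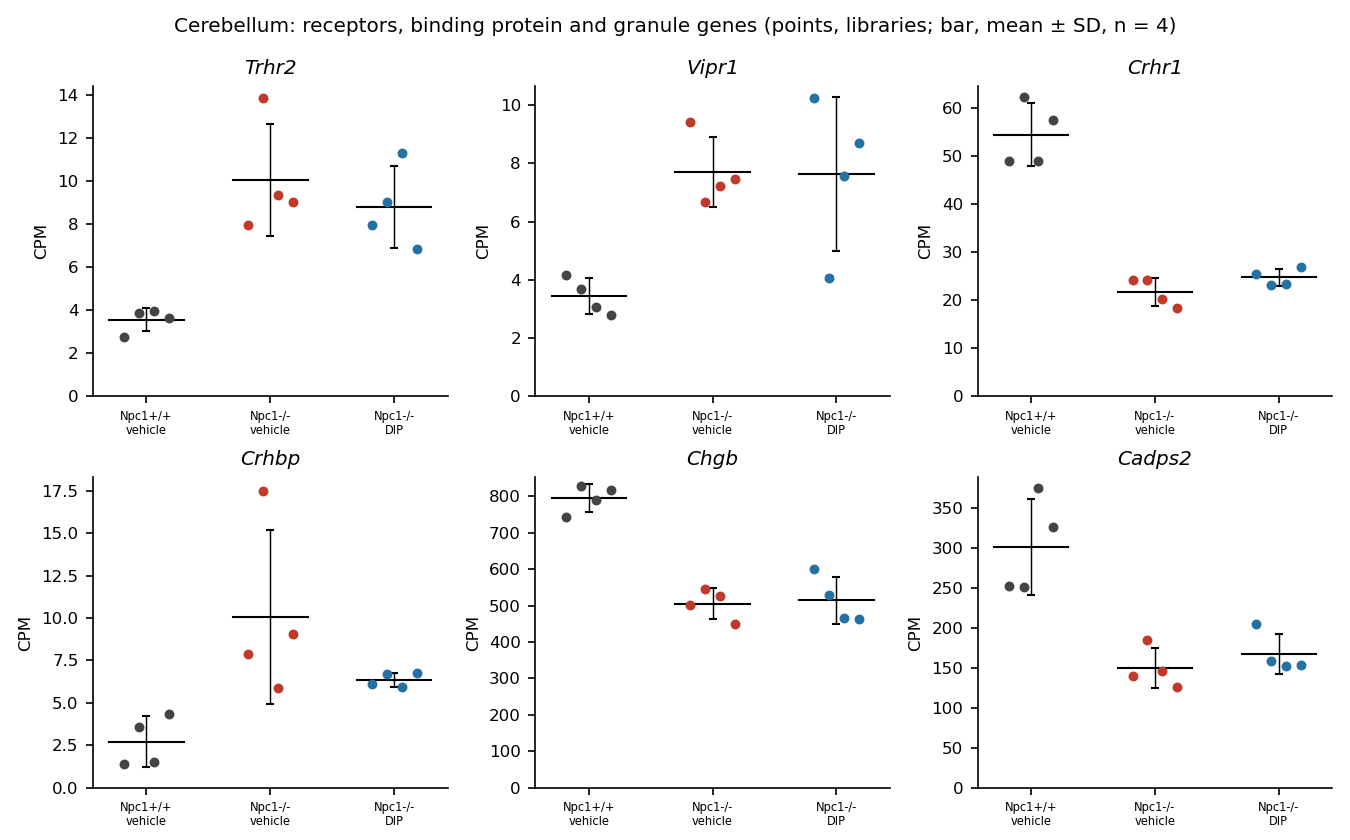
CPM in the cerebellum (linear axes from 0) of the receptors Trhr2, Vipr1 and Crhr1, the binding protein Crhbp and the granule genes Chgb and Cadps2, with each library a point (mice 1 to 4 from left to right) and mean ± SD of 4 mice as bars. Trhr2 lies at 2.78 to 3.97 in wild-type vehicle and 7.98 to 13.9 in mutant vehicle mice, and Crhr1 at 49.0 to 62.4 and 18.4 to 24.2.

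All 20 genes of precursor processing and dense-core granules passed the filter in both tissues, and 2 fell in mutant vehicle cerebellum while none rose. This is 2 of 20, near the 9.95% called over all genes. Chgb (chromogranin B, a granule matrix protein) was at 743, 827, 791 and 816 CPM in wild-type vehicle, 501, 546, 525 and 448 in mutant vehicle and 601, 528, 467 and 462 in mutant dipyridamole libraries. The difference was -0.73 ± 0.15 (log2 ± SE, edgeR adjusted p = 0.00507) by genotype. Cadps2, which primes dense-core granules for release, fell by 1.11 ± 0.21 (adjusted p = 0.00166). In the fit with only the vehicle groups Cadps2 was not called (0.0817), and Chgb was not called in 3 of 22 alternatives (adjusted p up to 0.195). In mutant hippocampus 0 of 20 were called, where 1.62% of all genes were. At an unadjusted p under 0.05 there were 2 of 20, beside 1569 of 12740 over all genes. Of these 2, Qpct, the enzyme that forms the pyroglutamate of peptides such as thyrotropin-releasing hormone, differed by 0.99 ± 0.33 (edgeR adjusted p = 0.201).

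Of 11 peptidases and binding proteins, 10 were tested and 1 was called in mutant vehicle cerebellum, near the 9.95% called over all genes. This was Crhbp, which binds corticotropin-releasing hormone, and it rose. It was at 1.39, 3.60, 1.54 and 4.36 CPM in wild-type and 7.86, 17.5, 5.86 and 9.05 CPM in mutant vehicle libraries, by 1.51 ± 0.44 (log2 ± SE, edgeR adjusted p = 0.0364). The call was lost in 11 of 22 alternatives, with adjusted p of up to 0.365. Trhde, the ectoenzyme that degrades thyrotropin-releasing hormone, was at 71.4, 57.2, 58.3 and 43.1 CPM in wild-type vehicle, 51.7, 36.5, 50.3 and 49.1 in mutant vehicle and 31.9, 47.5, 53.5 and 55.2 in mutant dipyridamole cerebellum, and was not called.

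Another 49 precursors were listed, of which 21 passed the filter in cerebellum and 13 in hippocampus. In mutant vehicle cerebellum 2 of 21 rose and none fell, near the 9.95% called over all genes, and the median log2 fold change was 0.47. Adcyap1, the precursor of the peptide PACAP, was at 16.3, 18.1, 9.49 and 11.9 CPM in wild-type and 18.5, 26.7, 24.7 and 31.3 CPM in mutant vehicle libraries (0.92 ± 0.27, log2 ± SE, edgeR adjusted p = 0.0401). Calcb, a calcitonin gene-related peptide precursor, was at 0.52 to 1.40 CPM in wild-type and 2.05 to 3.02 CPM in mutant vehicle libraries, on 4 to 24 counts each in the latter (1.57 ± 0.45, adjusted p = 0.0309). Each lost its call in 9 of 22 alternatives, with adjusted p of up to 0.262 and 0.229. In mutant dipyridamole against wild type these 2 were called again and Nucb2, the precursor of nesfatin, rose by 0.82 ± 0.24 (adjusted p = 0.0265). That is 3 of 21, near the 14.4% called over all genes. The calls for Nucb2, Adcyap1 and Calcb in this comparison were lost in 6, 7 and 10 of 22 alternatives, and 0 of the list were called without mutant dipyridamole 3 or 4, mutant vehicle 3 or wild-type 3. In hippocampus Apln, the apelin precursor, fell in mutant dipyridamole against wild type by 1.00 ± 0.23 (edgeR adjusted p = 0.0325), and 13 of 23 alternatives lost that call. It was the 1 of 13 tested that was called, where 2.68% of all genes were.

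Genes induced by neuronal activity, several of them targets of cyclic AMP signalling, fell in the mutant cerebellum in 5 of 15 tested and rose in none, where 4.04% of all genes fell. The count was 3 without mutant vehicle mouse 3 and with only the groups compared, and 8 with no sex covariate. The differences with the largest size were those of Nr4a3 (-2.71 ± 0.39, log2 ± SE), Egr4 (-2.20 ± 0.35), Nr4a1 (-2.10 ± 0.30) and Nr4a2 (-1.77 ± 0.40), with edgeR adjusted p from 0.000147 to 0.00818. The call for Nr4a2 was lost in 3 of 22 alternatives, with adjusted p of up to 0.157. In mutant hippocampus 2 of 17 fell, Arc (-1.48 ± 0.32, adjusted p = 0.0303) and Dusp6 (-1.07 ± 0.24, 0.0448), where 0.597% of all genes fell. These calls were lost in 9 and 12 of 23 alternatives, with adjusted p of up to 0.414 and 0.521. Among 15 genes of GABAergic interneurons, 11 were tested in cerebellum and 3 called, where 9.95% of all genes were. Nos1 (0.78 ± 0.16, edgeR adjusted p = 0.0035) and Gad2 (0.56 ± 0.17, 0.0491) rose, and Pvalb, which Purkinje cells also make, fell (-1.19 ± 0.25, 0.00451). Bulk counts do not tell which cells of the cerebellum these changes came from, so they are not read as changes in interneurons. The call for Gad2 was lost in 16 of 22 alternatives, with adjusted p of up to 0.382. Without mutant vehicle mouse 3 none of the 3 was called (0.0919 for Nos1 and 0.0731 for Pvalb). In mutant vehicle hippocampus 0 of 13 were called, where 1.62% of all genes were. At an unadjusted p under 0.05 there was 1 of 13, beside 1569 of 12740 over all genes.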

How the data were processed

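Libraries were made from cerebellar and hippocampal RNA with a targeted panel (Ion AmpliSeq) and sequenced on an Ion S5 instrument, per the labels' protocols. The deposited files hold raw read counts for each gene, which the authors did not normalize. The submitters' processing notes name FastQC 0.11.9, Trimmomatic 0.39, STAR 2.7.9a and featureCounts 2.0.3, with the mouse build GRCm39. Per the file headers the gene models were those of GENCODE M34, and strand was not used. Reads where genes overlap on opposite strands were therefore not told apart by strand. Duplicate reads from amplification cannot be told from separate molecules.

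Groups came from the labels. Symbols were matched for 51884 of 57126 identifiers (0.21% of counts had no symbol). All 36 pairs of replicates differed beyond sampling noise (chi-square over its degrees of freedom, 6.99 to 46.2). The labels give each replicate as a separate mouse. Each tissue was fitted with edgeR 4.0.16 in R 4.3.3 (TMM, filterByExpr over the 3 groups, robust quasi-likelihood test, sex as covariate, 12 libraries). Tissues were compared over 24 libraries with the mouse as block and a term for sex in each tissue. That block follows the animal number each label carries. The correlation between deviations in the 2 tissues was -0.383 to 0.435, and 7 of the 12 mice exceeded 0.1. Adjusted p is Benjamini-Hochberg over all genes tested, with 0.05 as threshold. SE is the fold change over the square root of F. Log2 CPM for likeness to Trh used a prior count of 0.5.

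The members, the lists and the alternatives were chosen with earlier results of these data known. Named genes were the 10 precursors, up to 4 called members of each list with the largest change or up to 2 with the smallest p where none was called, and the 5 genes most like Trh, of which 1 is not reported here. Trhr, Trhde, Cckbr and the single markers of brainstem, cerebellum and dentate gyrus were singled out after their values were seen. Alternatives were DESeq2 1.42.0, limma-voom (limma 3.58.1), other scalings and filters, no sex term, a replicate block, fewer groups, female mice only and each library left out. The fits were also run on simulated counts, with an outcome that is not reported here. Those counts held no difference by sex, so they do not cover the unequal sexes of the groups.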

Additional observations from a re-analysis of the deposited data

Results flagged for a closer look

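Among 54 sets of 4 libraries (a precursor in a group) with any spread, 3 had a library whose gap to the nearest of the rest passed Dixon's 95% critical value. Chance alone gives about 1 in 20. Trh in the hippocampus of mutant dipyridamole mouse 2 was at 1.39 CPM (12 counts), against 0.28 to 0.41 in its group. Penk in the cerebellum of mutant dipyridamole mouse 1 was at 83.1 CPM, against 101 to 103. Cartpt in the cerebellum of mutant vehicle mouse 4 was at 17.5 CPM, against 4.65 to 6.36. The genotype difference depended on the tissue for 2 genes of the precursor, receptor, granule and peptidase lists by the interaction of the edgeR fit over 24 libraries. It was 1.16 higher (log2) in hippocampus than in cerebellum for Cck and 1.66 higher for Crhr1.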

How the results depend on the processing

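No called difference of a precursor changed sign under any alternative run. For Trh the cerebellar genotype difference ranged from 3.40 to 5.03 (log2) over 21 alternatives; the stricter filter removed the gene and gave no value. Precursors called by genotype in cerebellum numbered 1 in the reported fit, 3 with no filter, 4 with no sex covariate, 0 with only the groups compared, and 1 to 2 with a library left out (2 without mutant vehicle 2 or wild-type 2). In mutant dipyridamole against wild type they numbered 2, and 5 in female mice only, with no filter and with only the groups compared, 4 with no sex covariate, and 1 to 4 with a library left out (1 without mutant dipyridamole 4, 4 without mutant vehicle 4 or wild-type 2). The genotype difference between tissues had 1, and 0 with limma-voom and with no animal block, 2 with no tissue-by-sex term, and 0 to 1 with a mouse left out. The cause of these changes was not tested.

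Replicate numbers name different mice within a tissue; deviations of same-numbered libraries correlated from -0.370 to 0.416 in cerebellum and from -0.357 to 0.537 in hippocampus, above 0.1 in 2 and 5 of 12 pairs. With the replicate number as a block, precursors called in mutant dipyridamole against wild-type cerebellum numbered 1 (Pdyn had an adjusted p of 0.0595 by edgeR), and in place of the mouse the block left 0 for the genotype difference between tissues. All genes called with this block numbered 613 and 1171 in cerebellum (genotype, mutant dipyridamole against wild type; 1286 and 1864 reported) and 55 and 195 in hippocampus (206 and 342 reported).

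Counts over all genes moved beyond 1.5 times for cerebellar genotype with no sex covariate (2249) and only the groups compared (421). For hippocampal genotype they moved with DESeq2 (419), female mice (51), no sex covariate (490) and only the groups compared (47). For mutant dipyridamole against wild-type hippocampus they moved with DESeq2 (689), female mice (179) and, chosen after seeing the data, without mutant vehicle 2 and mutant dipyridamole 4 (144). With no tissue-by-sex term 386 genes differed between tissues by genotype, against 155, and with no filter dipyridamole called 13 genes in cerebellum, against 0. With a library left out, counts over all genes fell to 474 (cerebellar genotype, without mutant vehicle 3) and to 858 and 1203 (mutant dipyridamole against wild-type cerebellum, without mutant dipyridamole 4 or 3). Hippocampal genotype fell to 31, 102, 118 and 122 (without mutant vehicle 3, wild-type 3, wild-type 2 or mutant dipyridamole 1), mutant dipyridamole against wild-type hippocampus to 130, 178 and 199 (without mutant dipyridamole 4, wild-type 3 or wild-type 2), and the genotype difference between tissues to 27 and 90 (without mutant vehicle 3 or wild-type 3). Mutant vehicle 3 is the only female of its group. The shares called over all genes move with these counts. Low counts limit the precision of Trh, which has 0 to 12 counts in wild-type and hippocampal libraries.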
